A study of Mus musculus with 24 samples.

Results

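Fragments lying more than 200 kb upstream of the gene they were assigned to, and away from CpG islands, made up 12174 of the 65535 MspI fragments in the infant table, or 18.6%. They were chosen by 4 conditions on the annotation that came with the counts. The fragment had to be classed as upstream, its distance to the named gene had to exceed 200000 bp, it could not be an island core, and the nearest island had to be more than 2000 bp away. The rule used no measured value. Brown adipose tissue (BAT) was taken from female C57BL/6J pups at postnatal day (PND) 12 whose dams had been given either DDT, a mixture of its o,p′ and p,p′ isomers, or the olive oil vehicle (VEH) by gavage from mid-gestation to PND 5. Each library was a pool of 2 to 5 sisters from 1 litter, with 12 libraries in each group, so that p-values measure the spread between litter pools. BAT holds adipocytes, endothelial cells, blood cells and nerve fibres, and a level is an average over the alleles of all of them, so that a change in cell makeup and a change within a cell type cannot be told apart. Near the starts of the adipocyte genes Fabp5, Cebpb and Acadl, VEH levels were between 0.713% and 6.18%. Near those of the skeletal muscle genes Ttn and Neb they were 13.7% and 94.4%, and no fragment near a start of the blood markers was tested.

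Gene deserts are long stretches of a chromosome with no annotated protein-coding gene. In mammalian somatic tissue most CpGs outside promoters and CpG islands carry a methyl group, and the interspersed repeats that fill deserts are methylated along with the unique sequence between them. CpG-rich gene starts are the main exception and usually lack methylation whether or not the gene is expressed. Reduced representation bisulfite sequencing (RRBS) reads DNA cut at CCGG by MspI, so that in a desert it samples those few places where a pair of CCGG sites lies close together.

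The sequences of 4 groups of fragments described below are given from GRCm38 on the forward strand with every CpG in capitals. The first group lies inside the gene Aff3, beside an annotated internal transcript start, and held the lowest levels of the class although the fragments were assigned to Nms, at least 311428 bp away. The CpGs stand close together in all 3.
Nms, chr1:38627277-38627334: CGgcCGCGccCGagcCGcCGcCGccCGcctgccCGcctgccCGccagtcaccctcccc
Nms, chr1:38627404-38627471: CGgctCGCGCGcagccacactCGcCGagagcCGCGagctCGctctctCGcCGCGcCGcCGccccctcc
Nms, chr1:38627529-38627578: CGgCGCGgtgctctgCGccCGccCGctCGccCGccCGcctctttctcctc

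The second group is drawn from the 5 highest levels. Its 3 fragments lay on chromosome 3, were assigned to different genes, and were copies of 1 soft-masked repeat of 75 bp, which the first holds on the reverse strand.
Snx16, chr3:11852156-11852230: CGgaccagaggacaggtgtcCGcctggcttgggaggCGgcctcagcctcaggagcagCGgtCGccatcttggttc
Sclt1, chr3:46101474-46101548: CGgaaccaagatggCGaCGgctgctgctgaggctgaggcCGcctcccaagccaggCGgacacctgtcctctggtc
Ptbp2, chr3:119983880-119983954: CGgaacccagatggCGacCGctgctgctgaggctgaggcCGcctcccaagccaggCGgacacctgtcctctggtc

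The third group is the fragment with the smallest ANOVA p of the DDT comparison, which lies in the gene St18, with 3 others of the 10 smallest. None of them passed adjustment (ANOVA, adjusted p = 0.869).
4732440D04Rik, chr1:6517782-6517991: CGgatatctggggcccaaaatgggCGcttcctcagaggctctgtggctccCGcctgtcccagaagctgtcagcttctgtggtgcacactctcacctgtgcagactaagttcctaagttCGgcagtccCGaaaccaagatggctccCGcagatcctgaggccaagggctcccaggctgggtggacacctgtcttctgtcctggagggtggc
Mki67ip, chr1:118114970-118115016: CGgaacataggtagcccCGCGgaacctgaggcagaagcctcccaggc
Tmem169, chr1:72006178-72006218: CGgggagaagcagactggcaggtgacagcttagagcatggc
Gm7536, chr3:23687723-23687764: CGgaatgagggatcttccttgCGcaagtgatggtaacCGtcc

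The fourth is a CpG-rich fragment of low level far from any protein-coding gene, assigned to the homeobox gene Evx2 of the HoxD region.
Evx2, chr2:75138079-75138127: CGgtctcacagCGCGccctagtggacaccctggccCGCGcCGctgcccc

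The methylation level was the percentage of CpG calls read as methylated. Levels resting on under 10 calls were not used, and testing required 8 VEH and 8 DDT libraries with a level. Of the 12174 fragments, 1509 were tested (12.4%), and 445 had a level in all 24 libraries. In the table as a whole 30.9% of fragments were tested. Total calls were between 8371958 and 13768991 in VEH libraries and between 9895508 and 14124652 in DDT libraries, and the median tested desert fragment had between 125 and 240 calls in VEH libraries. Library DDT 4 stood apart, with a median of 3 calls per tested desert fragment and a level at 630 of the 12174, against 1249 to 1858 in the 10 DDT libraries other than DDT 4 and DDT 12. Only 1.87% of the calls of DDT 4 and 2.81% of those of DDT 12 fell in the class, against 4.53% to 6.57% in VEH libraries. The label of DDT 12 is out of sequence with those of the other libraries. Several results below are given with and without these 2 libraries, and other values include them wherever they had a level. Intervals and call counts cover counting error only, since reads carried no molecular identifiers.

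The label of gene desert held for the named gene but less often for the genome around the fragment. All fragments whose named gene was found in GENCODE M21 lay on the upstream side of it, but a different protein-coding gene lay between fragment and named gene for 52.6% of tested fragments. Of the 1509, 132 (8.75%) lay inside a protein-coding gene and 303 (20.1%) inside a gene of any type, while 814 (53.9%) were more than 200 kb from every protein-coding gene. The tested fragments numbered 633 on chromosome 1, 449 on chromosome 2 and 427 on the first part of chromosome 3, with median VEH levels of 84%, 83.1% and 86.2%. The median distance to the named gene was 421866 bp and the median distance to the nearest protein-coding gene was 221507 bp. The farthest tested fragment, chr3:46280732-46280771, was assigned to the centriole gene Sclt1 at 4538219 bp, but lay 161426 bp from Pabpc4l. Its level had a lowest, median and highest of 76.2%, 86.4% and 91.4% in 12 VEH libraries, and of 79.1%, 85.8% and 93.5% in 10 DDT libraries, so that it was as methylated as the middle of the class.

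Desert fragments were mostly highly methylated. Their median VEH level was 84.5%, with 814 of 1509 (53.9%, by coincidence as many as lay more than 200 kb from genes) above 80% and 259 (17.2%) below 20%. The median was 54.1% in 2053 upstream fragments 5 to 50 kb from their named gene, 31.4% in 3796 intron fragments away from islands and 8.17% in 53 orphan island cores, which are CpG island cores more than 200 kb upstream of their named gene. Of these 53, 56.6% lay inside a protein-coding gene of GENCODE M21. Over all 20225 tested fragments it was 11%. As the plot of cumulative levels shows, no class lacked either extreme, and the classes differed in how many fragments lay at each.

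**Figure D1:**
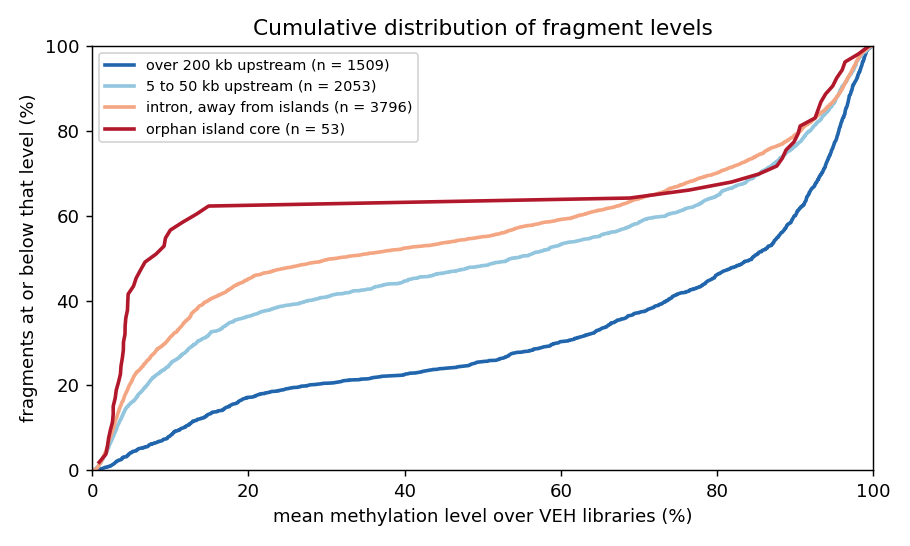
Cumulative share of tested fragments (vertical axis, %) at or below a mean level over VEH libraries (horizontal axis, %), 1 line per class with its number of fragments. The line for fragments over 200 kb upstream passes 17.2% at a level of 20%, and the line for introns passes 45.0% there.

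The difference between classes was present in every library. The 445 desert fragments that had a level in each of the 24 libraries averaged 61.4% ± 1.15 (SD, n = 24 libraries), against 33.1% ± 1.18 over 764 fragments 5 to 50 kb upstream. The difference was 28.3 percentage points ± 0.24, had the same sign in 24 of 24 libraries, and was 28.3 in VEH and 28.3 in DDT libraries. Introns away from islands averaged 26.6% ± 1.02 over 1576 fragments, 34.7 points ± 0.336 below the desert class, and orphan island cores 20.2% ± 0.533 over 31 fragments, 41.2 points ± 1.41 below it. Two-sided sign-flip permutation tests over libraries gave p = 2e-05 for all 3, the smallest that 100000 resamples can give, and 2e-05 after adjustment over the 6 comparisons of this kind. Every library was averaged over the same fragments, so these tests, here and below, measure the spread between libraries and not that between fragments.

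These sizes depended on which fragments entered and on how they were averaged. With medians over the same fragments in place of means, the differences were 64.2 points to the 5 to 50 kb class, 68.3 to introns and 72 to orphan island cores. Fragments with a level in all 24 libraries were set by DDT 4, and when DDT 4 and DDT 12 were left out the desert class rose to 1124 fragments and its distance to the 5 to 50 kb class was 18.6 points. Between fragments holding 1 or 2 CpGs the distance was 13.8 points to the 5 to 50 kb class and 16.4 points to introns. Between fragments over 5 kb from protein-coding genes (372 desert, 352 of the 5 to 50 kb class) it was 21.8 points.

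**Figure D2:**
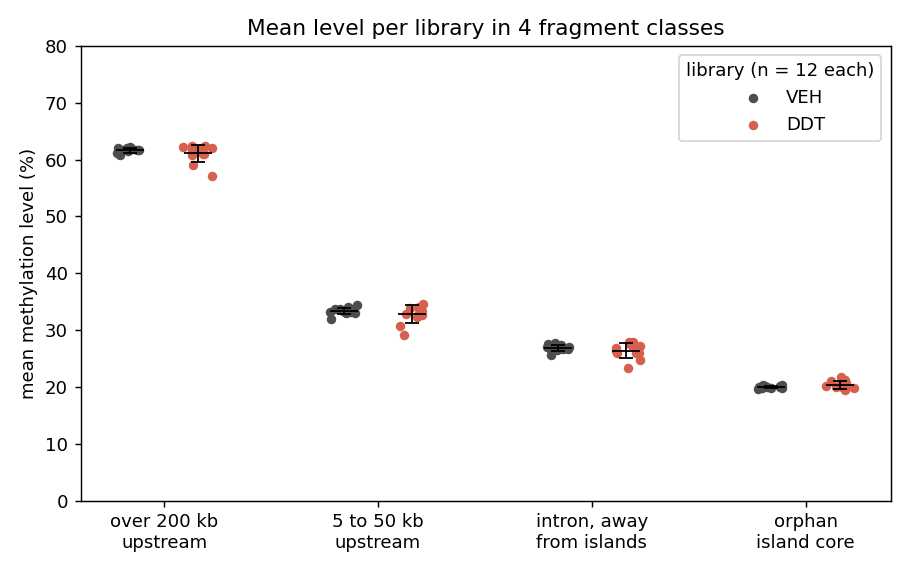
Mean methylation level (vertical axis, %) of each library over the fragments of 4 classes with a level in all 24 libraries, VEH in grey and DDT in red, with bars at the mean and SD of 12 libraries. The classes do not overlap, and the lowest points of the first 3 classes are DDT 4.

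Low levels were most frequent near gene starts that the annotation had passed over, but most of the low fragments lay elsewhere. Of the 1509 tested fragments, 80 lay under 1 kb from the start of a protein-coding transcript in GENCODE M21, and 73 of these (91.2%) had a VEH level below 20%. These 73 made up 28.2% of the 259 low fragments. Another 96 (37.1%) lay outside protein-coding genes, within 200 kb of one and 1 kb or more from a start. A further 79 (30.5%) lay more than 200 kb from protein-coding genes. The 80 had a median level of 5.66% and a median of 5 CpGs per fragment. The starts belonged to 16 genes, and 14 of those genes were named for other fragments of the same table. The closest island in the annotation was at least 10077 bp from these fragments, although the observed to expected CpG ratio over the surrounding 1 kb was above 0.6 at 59 of the 80.

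Several of these starts were covered by a run of fragments. At Galnt13, which encodes a glycosyltransferase that begins O-linked sugar chains, 10 fragments assigned to Rprm had VEH levels between 2.53% and 14%. At the potassium channel gene Kcnb2, 9 fragments assigned to Trpa1 were between 3.04% and 24.8%, and at the receptor tyrosine phosphatase gene Ptprt 9 fragments assigned to Srsf6 were between 1.21% and 9.97%. Esrrg encodes an orphan nuclear receptor of oxidative tissues such as BAT. Its 8 fragments, assigned to Spata17, were between 1.58% and 19.8%, with a median of 4.94% in VEH and 5.26% in DDT libraries. Rims1, a gene of the presynaptic active zone, had 7 fragments with a median of 5.01%. Methylated fragments at a start were few. Both that exceeded 80% stood alone at their start, at Gm38100 (90.7%) and Frmd4a (87.4%).

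Aff3, which encodes a nuclear protein of the AF4 family, held the lowest level of the class. It had 16 tested fragments, 11 of them below 20%, and those 11 lay in a stretch of 1217 bp, chr1:38626506-38627722, which also held a fragment at 31.4%. The fragment with the lowest level, chr1:38627404-38627471, holds 14 CpGs, had between 237 and 6266 calls per library, and its lowest, median and highest levels were 0.175%, 0.353% and 0.81% in VEH and 0%, 0.296% and 1.45% in DDT libraries. Neighbours at chr1:38627529-38627578 and chr1:38627277-38627334 averaged 0.556% ± 0.32 and 0.736% ± 0.421 (SD, n = 12 VEH libraries). Outside the stretch levels were higher. The Aff3 fragment at chr1:38620808-38620856 averaged 52.9% ± 1.72 and that at chr1:38649764-38649829 averaged 85.3% ± 2.39 in VEH libraries.

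The other 2 of the 5 lowest fragments were of different kinds. The Ptprt fragment at chr2:162661120-162661172, with 10 CpGs over the annotated first exon, had lowest, median and highest levels of 0.729%, 1.26% and 1.7% in VEH libraries. The fragment at chr1:24964319-24964376, assigned to Gm10222, is wholly soft-masked, holds 1 CpG and overlaps an exon of the noncoding gene Gm28237. Its levels were 0%, 0.747% and 2.13% in VEH and 0%, 0.504% and 1.48% in DDT libraries, lower than any other fragment with 1 CpG in the class.

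Levels were lower in and near protein-coding genes than far from them, and the lowest lay near transcript starts. The 132 fragments inside such a gene had a median of 20.2% and the 45 within 5 kb of one a median of 13.9%. Away from starts levels inside genes were higher. The 70 fragments inside a protein-coding gene but 1 kb or more from a start had a median of 66.3%, with 15.7% below 20%. The median was 78.5% for 171 fragments at 5 to 50 kb, 84.5% for 347 at 50 to 200 kb and 89.1% for the 814 beyond 200 kb. Over fragments with a level everywhere, those beyond 200 kb of any protein-coding gene (228) exceeded those within 5 kb (73) by 54.6 points ± 1.21 (SD, n = 24 libraries), with 24 of 24 libraries in the same direction (sign-flip permutation test, p = 2e-05, a comparison added after the data were seen). The 73 included the 51 fragments with a level everywhere that lay under 1 kb from a start. Neither this comparison nor the next left out fragments near starts. Fragments inside another gene of any type averaged 34.3% (117 fragments) and those outside genes 71% (328 fragments). The difference was -36.7 points ± 0.687 (sign-flip permutation test, p = 2e-05), and -23.9 without DDT 4 and DDT 12.

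**Figure D3:**
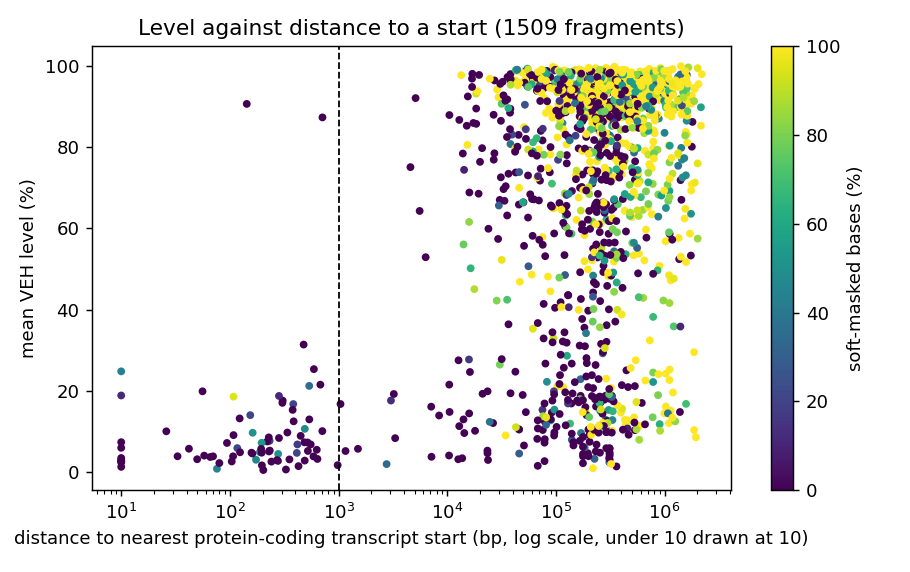
Mean VEH level (vertical axis, %) of each of the 1509 tested fragments against its distance to the nearest protein-coding transcript start (horizontal axis, bp, log scale), coloured by the percentage of soft-masked bases. Left of the dashed line at 1 kb, 73 of 80 fragments are below 20%.

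Distance to the named gene carried less. The median level was 79.2% for 871 fragments at 200 to 500 kb, 89.1% for 414 at 500 kb to 1 Mb, 88.9% for 187 at 1 to 2 Mb and 86.2% for 37 beyond 2 Mb. Fragments over 1 Mb from the named gene (60 with a level everywhere) exceeded those at 200 to 500 kb (256) by 20.2 points ± 1.51 (sign-flip permutation test over 24 libraries, p = 2e-05). That difference was 11.4 points without DDT 4 and DDT 12 and 3.49 points ± 1.24 among fragments more than 200 kb from every protein-coding gene. The rank correlation with level over the 1509 fragments was 0.114 for distance to the named gene and 0.273 for distance to the nearest protein-coding gene, a description over sites that share the same libraries. The 3 fragments just inside the 200000 bp limit had VEH levels of 74.2%, 62.1% and 58.3%, and the 3 just outside it 65.2%, 28.7% and 95.8%.

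Low levels also occurred beyond 200 kb of every protein-coding gene, in 79 fragments below 20% that were mostly CpG-poor. Of the 79, 45 held a single CpG and 51 were under 50 bp, and 11 lay under 1 kb from the start of a noncoding transcript. Beyond 200 kb, 14.6% of the 349 fragments under 50 bp were below 20%, against 2.45% of the 326 of 50 to 80 bp. The part of fragment length in these low levels was not tested. Only 9 held 5 or more CpGs. Among those, 2 neighbouring fragments assigned to Evx2 and within 281 bp of the start of the noncoding gene Gm13652 averaged 5.81% ± 2.24 and 3.02% ± 0.405 (SD, n = 12 VEH libraries), 259111 and 259648 bp from Mtx2, the closest protein-coding gene. A fragment of 193 bp with 16 CpGs at the start of the noncoding gene Gm26901, chr1:7397822-7398014, averaged 9.93% ± 3.02 in VEH and 8.3% ± 4.28 in DDT libraries. The 2 lowest fragments beyond 200 kb of genes, chosen after their values were seen, were CpG-poor and thinly covered. The fragment at chr3:49433729-49433845, assigned to 1700018B24Rik, averaged 1.92% ± 3.12 with 10 to 50 calls per library, and the one at chr1:7398510-7398554, assigned to 4732440D04Rik, 2.35% ± 5.73 with 10 to 38 calls.

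Repeats were more methylated than the unmasked sequence of the class. Soft-masked bases are those marked as repeats in the reference. Of the tested fragments, 52.3% were soft-masked over at least 50% of their bases, against 20.9% of those 5 to 50 kb upstream and 11.2% of introns away from islands. The median level rose from 65.9% in 593 fragments masked over less than 10% of their bases to 92% in those masked over 90% or more. Masked fragments exceeded unmasked ones by 31.9 points ± 1.47 over 24 libraries (78.9% over 200 fragments against 47% over 245, sign-flip permutation test, p = 2e-05), by 20.8 points without DDT 4 and DDT 12, and by 16.5 points ± 1.27 among fragments more than 200 kb from every protein-coding gene. The 80 fragments under 1 kb from a start had a median of 0% masked bases.

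A single repeat recurred through the class. The 75-bp fragments assigned to Snx16 and Ptbp2 each matched the Sclt1 fragment at 73 of 75 positions. At 80% identity or more over the same length, 31 tested desert fragments belonged to this family, assigned to 28 different genes, with VEH levels between 72.2% and 100% and a median of 94.1%. Another 21 tested fragments outside the class belonged to it, with a median of 93.5%. The Snx16 copy read 100% in all 11 VEH libraries with a level, at 13 to 79 calls per library, and the Sclt1 copy between 98.8% and 100% in 9. The Ptbp2 copy had a lowest, median and highest of 97.6%, 100% and 100% in 10 VEH libraries and of 92.5%, 100% and 100% in 8 DDT libraries. The Snx16 sequence occurs 2 times and the Ptbp2 sequence 8 times in the table, and reads from identical copies cannot be told apart.

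Other words were shared as well. The 12-letter word found in the most tested desert fragments was AGCTTCTGGGAC, searched on both strands, which also reads GTCCCAGAAGCT. It was in 52 of 1509 (3.45%), against 47 (0.251%) of the other tested fragments, and in 1.02% of all 65535 fragments. The 52 had a median VEH level of 90.7% and a median of 100% masked bases. Over all 12174 fragments the most common word was AGGAGCTAGAGA, or TCTCTAGCTCCT on the other strand, in 1768 (14.5%) against 4.33% of fragments outside the class, and no tested fragment held it. Those 1768 fragments lacked the coverage to be tested, so no level is given for the fragments that hold the most common word.

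Levels stepped up at a length of 50 bp. Fragments under 50 bp had a median VEH level of 67.7% (647 fragments) and those of 50 to 80 bp 92.6% (589 fragments). Longer fragments were lower again, with medians of 87.6% from 80 bp to under 120 bp and 64.6% at 120 bp or more (146 fragments). At 48 to 49 bp the median was 69.7% and at 50 to 51 bp 90.3%. Reads were single-end and 50 bp long, so a read of a shorter fragment runs into its far MspI end, where end repair fills in bases from unmethylated nucleotides in the tube. In fragments under 50 bp the median ran from 48.1% with 1 CpG through 71% with 2 to 90.3% with 5, and was 10.4% with 6 or more (19 fragments), whereas at 50 to 80 bp it was 95.4% with 1 CpG, 91.4% with 2, 93.6% with 5 and 79.8% with 6 or more. The part of the filled-in end in these levels was not tested.

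The same step appeared in the other upstream and intron classes, with medians of 43.9% and 78.9% for fragments 5 to 50 kb upstream and of 22.9% and 67.4% for introns. Over all tested fragments, most of them of low level, the medians were 10.5% and 9.18%. Over libraries, desert fragments under 50 bp differed from those of 50 to 80 bp by -8.78 points ± 1.2 (sign-flip permutation test, p = 2e-05, added after the data were seen), and by -19.1 points without DDT 4 and DDT 12. The class differences, recomputed for length after the data were seen, were as large among fragments of 50 bp or more, at 30.5 points to the 5 to 50 kb class and 37 points to introns.

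**Figure D4:**
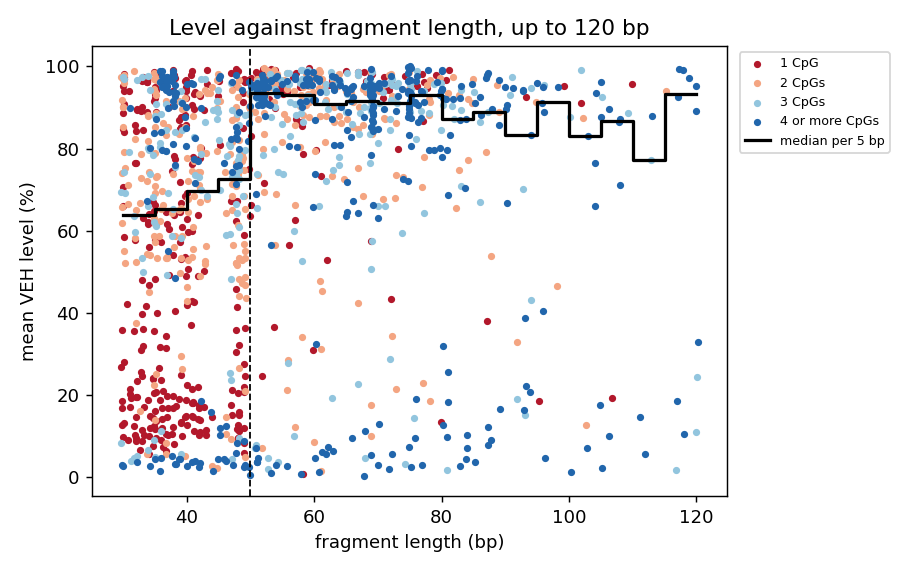
Mean VEH level (vertical axis, %) of tested fragments up to 120 bp against fragment length (horizontal axis, bp), coloured by number of CpGs, with the median per 5 bp as a black line. The line steps up at 50 bp (dashed), where the medians on either side are 69.7% for 48 to 49 bp and 90.3% for 50 to 51 bp.

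The 8 genes with the most tested fragments showed how deserts differed. Sclt1 (18 tested fragments), Ppp6c (17), which encodes the catalytic subunit of protein phosphatase 6, and the protocadherin gene Pcdh10 (16) had median VEH levels of 91.3%, 93.1% and 94.3%, and median masking of 100%. No Pcdh10 or Sclt1 fragment was below 20%. Dsel, an epimerase-like gene of dermatan sulfate synthesis, had 24 fragments spread from 691974 to 2269591 bp away, all more than 200 kb from any protein-coding gene, with a median of 86.4%, and AC101970.1 had 23 with a median of 85.3%. For the 32 fragments of Mki67ip, whose current symbol is Nifk, the median was 78.6%, and only 2 lay more than 200 kb from a protein-coding gene. 4732440D04Rik had 19 fragments with a median of 67%. Nms stood lowest at 12.9% over 17 fragments, of which 16 lay in Aff3.

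The groups were compared within these deserts as descriptions. For the 8 Mki67ip fragments with a level in every library the mean was 84.1% ± 0.741 in VEH and 83.6% ± 0.881 in DDT, and for 7 of Dsel it was 84.6% ± 2.17 and 86.1% ± 2.38 (SD, n = 12 each). The groups overlapped in both, with Dsel between 81.7% and 88.2% in VEH and between 81.8% and 89% in DDT libraries. For 4 fragments of AC101970.1 the DDT libraries ran from 57.9% to 81.7% and the VEH libraries from 74% to 79.5%.

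No desert fragment differed between DDT and VEH after adjustment. The ANOVA F test, adjusted by Benjamini-Hochberg across the 20225 tested fragments, called 0 of 1509, where 0% of all tested fragments were called. Their lowest adjusted p was 0.869. Without adjustment, 86 of 1509 had a p under 0.05 (5.70%, 95% Wilson interval 4.64% to 6.99%), where the share over all tested fragments was 4.18%. The interval takes fragments as independent, which fragments of the same libraries are not. Limma on the log2 ratio of calls gave 66 desert fragments (4.37%) where 3.51% of all passed, and a quasi-binomial regression gave 117 (7.75%) where 7.72% of all passed, and neither called any after adjustment. The background lay below the interval of the ANOVA count and matched the quasi-binomial share.

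Directions were mixed. Of the 86, 45 were higher in DDT (2.98% of the 1509, where 1.25% of all tested fragments were so) and 41 lower (2.72%, where 2.93% of all were). The share higher was 52.3% (95% Wilson interval 41.9% to 62.6%), beside 29.8% over all tested fragments, and it moved between 34.8% and 62.8% with the set of libraries and fragments. Over the 1509 the median difference was -0.19 points, beside -0.163 over all, and 165 (10.9%) differed by 5 points or more in either direction. The mean level over the 445 was 61.1% ± 1.57 in DDT and 61.6% ± 0.397 in VEH libraries (SD, n = 12 each), a difference of -0.547 points that was 0.0277 over the 1124 fragments kept without DDT 4 and DDT 12.

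The 10 fragments with the smallest ANOVA p are shown by library, and in all 10 the groups overlapped. Permutation p-values are printed as well, and their order differs. The smallest ANOVA p, 0.000818, was at chr1:6517782-6517991 in St18, which encodes a zinc finger protein, assigned to 4732440D04Rik. Lowest, median and highest levels were 21.5%, 25.8% and 34.5% in 12 VEH libraries and 10.1%, 19.9% and 25% in 10 DDT libraries. All 10 DDT values were below the VEH median, with a difference of -7.63 points (permutation test, p = 0.00074, adjusted ANOVA p = 0.869).

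**Figure D5:**
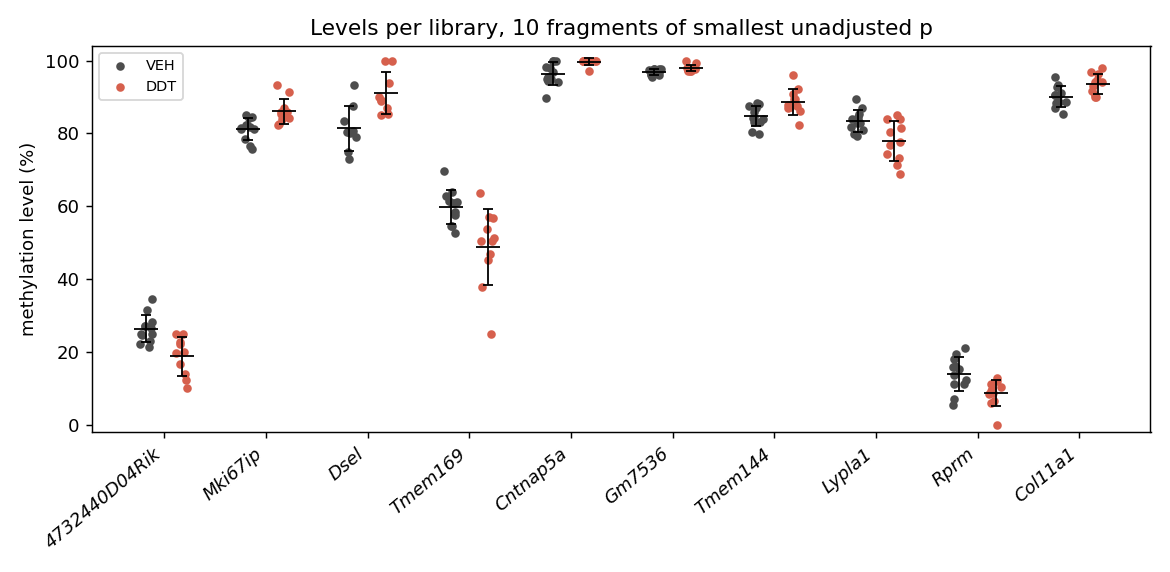
Methylation level (vertical axis, %) in each library at the 10 desert fragments with the smallest unadjusted ANOVA p, named by assigned gene and ordered by that p from left to right, VEH in grey and DDT in red with bars at mean and SD. The groups overlap at every fragment, and none passes adjustment.

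The fragment chr1:118114970-118115016 was assigned to Mki67ip, which encodes a partner of the proliferation protein Ki-67 and had 209 to 900 calls per library. It was at 75.8%, 81.7% and 85% in VEH and 82.4%, 85.2% and 93.4% in 11 DDT libraries. All 11 DDT values lay above the VEH median, a difference of 4.83 points (permutation test, p = 0.00066, ANOVA p = 0.00165), or 4.1 without DDT 12. The direction was opposite at chr1:72006178-72006218, assigned to Tmem169. Its levels were 52.6%, 60.9% and 69.61% in VEH and 25%, 50.6% and 63.6% in DDT libraries. The difference was -10.9 points (permutation test, p = 0.00132, ANOVA p = 0.00346), or -8.54 without DDT 12.

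Another 5 of the 10 were already above 80% in VEH and higher in DDT. Dsel at chr1:112652280-112652411 had levels of 73.1%, 80.4% and 93.3% in 9 VEH libraries and of 85%, 89.3% and 100% in 9 DDT libraries, with only 12 to 51 calls (difference 9.63 points, exact permutation test, p = 0.00374). At chr3:23687723-23687764, assigned to Gm7536, the VEH libraries spanned 95.5% to 97.6% and the DDT libraries 97.1% to 100%. There 12 of 12 DDT values were above the VEH median (difference 1.06 points, permutation test, p = 0.00228, ANOVA p = 0.0043). Without DDT 4 that difference was 0.875 points. Tmem144 (4.05 points), Col11a1 (3.47 points) and Cntnap5a (3.32 points) had the same direction. For Cntnap5a, a contactin-associated protein gene, limma gave an unadjusted p of 0.122 where ANOVA gave 0.00399, and DDT libraries were all at 100% but 1.

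The 2 remaining fragments were lower in DDT. Rprm at chr2:54436645-54436804 lies in an exon of Galnt13, 154 bp from a start, and had levels of 5.41%, 14.5% and 21.1% in VEH and 0%, 9.2% and 12.8% in DDT libraries. All 11 DDT values were below the VEH median (difference -5.3 points, permutation test, p = 0.00702). Without DDT 12 that difference was -4.43 points. Across the 51 fragments under 1 kb from a start with a level in all 24 libraries, VEH libraries averaged 6.92% ± 0.376 and DDT libraries 6.73% ± 0.768 (SD, n = 12 each). Lypla1 at chr1:3020945-3021011 averaged 83.5% ± 2.94 in VEH and 77.9% ± 5.46 in DDT libraries. The difference was -5.52 points, or -4.62 without DDT 12.

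Some of these fragments shared sequence with others of the class. The Gm7536 fragment and one assigned to the chemokine receptor gene Cxcr4, chr1:129090844-129090930, hold a common run of 23 bases on opposite strands, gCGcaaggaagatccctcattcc. Both were higher in DDT, with the Cxcr4 fragment at 98.3% ± 1.46 in VEH and 99.6% ± 0.696 in DDT libraries (difference 1.26 points, permutation test, p = 0.0182). For the Cxcr4 fragment the unadjusted p was 0.131 by limma and 0.118 with the replicate block. Its sequence occurs 2 times in the table, so that its level cannot be tied to 1 place. The Cntnap5a fragment shares a run of 24 bases on the opposite strand with the Dsel fragment chr1:113516426-113516477, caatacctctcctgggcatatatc, but the latter differed by -0.58 points in the other direction (permutation test, p = 0.165).

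By gene list, the 4 lists held few fragments past an unadjusted 0.05. Among 61 tested fragments assigned to 14 developmental transcription factor genes, 1 was higher and 2 were lower in DDT, with a median difference of -0.34 points. Among 69 assigned to 15 neuronal adhesion and synapse genes, 3 were higher and 1 lower, with a median of 0.308, and their median VEH level was 92%. Signalling ligands and receptors had 37 fragments at 8 genes, 2 higher and 2 lower, with a median difference of 0.181 points. Adipocyte and lipid genes had 8 fragments at Elovl6, Foxo1 and Plcb1, none of them past 0.05 by ANOVA (0 of 8), with a median of 0.387 points. Elovl6 encodes a fatty acid elongase. Over all tested fragments the median difference was -0.163 and 4.18% passed.

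Among developmental transcription factor genes the smallest ANOVA p was that of Evx2. At chr2:75138079-75138127 the lowest, median and highest levels were 2.38%, 2.91% and 3.83% in VEH and 0.0661%, 2.36% and 3.37% in DDT libraries, at 1035 to 2558 calls. Of 12 DDT values, 10 were below the VEH median. The difference of -0.716 points (permutation test, p = 0.0059, ANOVA p = 0.0141) was -0.513 without DDT 4, and limma gave an unadjusted p of 0.0871. The Elovl6 fragment with the smallest p averaged 14.7% ± 7 in VEH and 21.8% ± 11.9 in DDT libraries, a difference of 7.05 points that was 4.68 without DDT 11 and -3.33 when calls were weighted by a quasi-binomial fit.

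Between litter pools of 1 group the median SD of a fragment was 3.03 points over VEH libraries and 4.67 over DDT libraries. The median SD from counting of calls was 2.37 points. The DDT figure includes DDT 4 (median 3 calls per tested fragment) and DDT 12 (64 calls) wherever they had a level. In VEH the SD was widest between 20% and 80% (4.81 points, counting SD 3.24) and narrowest above 80% (2.31, counting SD 1.83). The 5 fragments with the widest VEH spread had SDs of 15.5 to 26.1 points and few calls. At chr1:119292389-119292460, assigned to the Hedgehog factor gene Gli2 with 10 to 69 calls, VEH libraries ran from 0% through a median of 50% to 77.8%. At chr3:78347555-78347638, assigned to Gm17359, they ran from 26.5% to 98.2%, while 10 DDT libraries stayed between 71.8% and 83.3%. The fragment at chr3:78032258-78032292, also of Gm17359, has a sequence that occurs 31 times in the table, and its level cannot be tied to 1 place.

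Neighbouring fragments were alike but not bound together. For 435 pairs of consecutive tested desert fragments under 1000 bp apart, the correlation of VEH levels was 0.607 (Spearman 0.562), a description over sites of the same libraries. The median difference was 10.3 points, and 66 pairs (15.2%) differed by more than 50 points.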

How the data were processed

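DNA methylation was measured by RRBS in BAT of 24 infant litter pools, 12 DDT and 12 VEH. Before depositing the counts, the authors trimmed reads with Scythe and Sickle, aligned them to GRCm38 with Bismark 0.15.0 and Bowtie2, and summed calls per MspI fragment into a methylated and a not methylated count, which were not normalized. The deposited annotation names a gene, an island class and 2 distances in bp, and its release is not given in the sources used here. The table holds 65535 fragments, all beginning at CCGG, and stops within chromosome 3 at position 136670346, so that other chromosomes were not analysed here. Total calls were 8371958 to 14124652 per library.

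The ANOVA F test with Benjamini-Hochberg adjustment is that of the study's statistics section, and ran over 20225 fragments with a threshold of 0.05. From a genome-wide analysis the paper reports differentially methylated genes in DDT-exposed infants at an FDR below 0.05. The fragments tested here cover only part of the genome, so that report and the results here are not like for like. The level and the minimum of 10 calls and of 8 libraries in either group were set here. Alternatives were a quasi-binomial regression, limma on log2 of (methylated + 1) over (not methylated + 1), minima of 5 and 20 calls, levels in all 24 libraries, total calls as covariate, a replicate block, each library left out, and DDT 4 and DDT 12 left out. Classes were compared within libraries by two-sided sign-flip permutation tests of 100000 resamples. Gene spans and transcript starts came from GENCODE M21 and sequences from the RefSeq GRCm38 genome, where the symbols of 78.8% of tested fragments were found in the former. The tests were first tested on simulated data.

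The members and gene lists were chosen with earlier results of these data known. Fragments were named as the 10 with the smallest ANOVA p, the 5 lowest, 5 highest and 5 most variable in VEH, and the farthest. Also named were the 8 genes with most tested fragments and the smallest ANOVA p of each of 4 gene lists. A fragment that this rule names is not reported here. Fragments at transcript starts, the repeat families and the low fragments far from genes were chosen after the data were seen, as were the comparisons by length and by distance to the nearest gene. Same-numbered DDT and VEH libraries shared only a number, and no pair of libraries agreed within sampling noise. Python 3.11.15, NumPy 2.4.6, pandas 2.3.3, SciPy 1.17.1, matplotlib 3.10.9, R 4.3.3 and limma 3.58.1 were used.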

Additional observations from a re-analysis of the deposited data

Results flagged for a closer look

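Single libraries lay far from the rest of their group at fragments where most libraries of the group sat at 0% or 100%. The criterion used marks about 1 in 20 groups by chance at its nominal rate, which was not tested for groups so close to 0% or 100%, and most of the values rest on a single call. At the 4732440D04Rik fragment chr1:7398510-7398554, 1 of 9 DDT libraries was at 5.88% (1 of 17 calls) and the others at 0%, while 2 VEH libraries were at 7.69% and 18.2%. At the Cntnap5a fragment among the 10 smallest p, 1 of 10 DDT libraries was at 97.1% (1 of 34 calls not methylated) and the others at 100%. Of the copies of the 75-bp repeat on chromosome 3, Snx16 had 1 of 9 DDT libraries at 97.3% (1 of 37 calls not methylated). The Sclt1 copy had 1 of 9 VEH libraries at 98.8% (1 of 81 calls) and, of 8 DDT libraries, 1 at 92.9% (1 of 14 calls) and another at 98.5%. The lowest of 8 DDT libraries of the Ptbp2 copy was at 92.5% of 67 calls, and 1 more was below 100%.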

How the results depend on the processing

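No desert fragment was called by any test or setting. The 86 at an unadjusted p under 0.05 became 23 when a level was required in all 24 libraries (445 tested), 27 with a difference of 5 points or more, and 50 among fragments of 50 bp or more, each of which admits fewer fragments. Leaving out 1 library gave 73 to 95. The share higher in DDT was 41.9% at 20 calls, 34.8% with all 24 libraries, 62.8% without DDT 4 and DDT 12, and 41.2% (without VEH 8) to 61.1% (without DDT 12) when 1 library was left out. The cause was not tested. Over all tested fragments that share went from 29.8% to 49.5% without DDT 4 and DDT 12. The mean difference of -0.547 points was -3.07 with pooled calls, which weight deeply covered fragments. The Elovl6 difference was -3.33 in the quasi-binomial fit. With the replicate block 69 fragments were below 0.05, 50.7% of them higher in DDT, 0 were called, and the unadjusted p of the Cxcr4 fragment went from 0.0213 to 0.118. Same-numbered libraries correlated between -0.18 and 0.199, and 1 of 12 VEH libraries correlated best with its own number. All 197 alternative values of the class comparisons kept their direction and side of the threshold, and 401 values of 13 named fragments, all but that of Elovl6, kept their direction and stayed above the adjusted threshold. At an unadjusted 0.05, limma lost Cntnap5a (0.122), Cxcr4 (0.131) and Evx2 (0.0871), and Elovl6 went from 0.0951 to 0.0296 without DDT 4 and DDT 12. Depth limits the class, since 1509 of 12174 fragments were covered well enough to test.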
